A study of Saccharomyces cerevisiae with 6 samples.

Results

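The 32 genes described here make, esterify, import and regulate ergosterol in the budding yeast *Saccharomyces cerevisiae*. They were compared between cells expressing H2B K37A and cells expressing wild-type H2B. The genes were listed by name and role and not by a measured value, but with earlier results of these data known. Every listed gene was found. Each was read by 1 probe set of the Affymetrix Yeast Genome 2.0 array, among 5498 *S. cerevisiae* probe sets tested. In the pathway, 24 of the genes act in the synthesis itself, from *ERG10* to *ERG4*. Of the remaining genes, 2 esterify sterols, 3 are transcription regulators and 3 serve sterol uptake or intracellular sterol transport.

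The arrays asked whether mutation of lysine 37 of histone H2B, a residue that can be methylated, changes gene expression across the genome. Total RNA was measured from 3 cultures of the H2B K37A strain (YKG007) and 3 cultures of the wild-type H2B strain (YKG001), all grown together in YPD, a rich glucose medium, to mid-exponential phase. Histone extracts are labelled as the source, but the labelled molecule and protocol are those of total RNA, which was taken as correct. Both strains are *MAT*a haploids in which the gene pairs *HTA1*-*HTB1* and *HTA2*-*HTB2* are deleted and replaced with *LEU2* and *TRP1*. All H2A and H2B therefore comes from a *CEN* plasmid with a *HIS3* marker, pKG2 with Flag-tagged *htb1* (K37A) in the H2B K37A strain and pZS145 with Flag-tagged *HTB1* in the wild-type H2B strain. Both also share the auxotrophic alleles leu2D1, ura3-52 and trp1D63, together with lys2D1, lys2-128d and his3D200. Each genotype is 1 strain, so the replicates are cultures of that strain and not independent transformants.

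Signals are RMA values on the log2 scale, so a difference of 1 is a 2-fold change, and every difference is given as H2B K37A minus wild-type H2B. Background was taken as 6.29, the 95th percentile of 1746 probe sets named for no *S. cerevisiae* gene. The markers of *MAT*a cells *STE2*, *MFA1*, *MFA2* and *BAR1* lay between 11.65 and 13.54 on all arrays, whereas the alpha-factor gene *MF(ALPHA)1* lay between 5.60 and 5.85, under background. The other alpha-cell genes *STE3* and *MF(ALPHA)2* lay between 7.78 and 8.74. *HTB1* averaged 14.42 in H2B K37A and 14.48 in wild-type H2B (limma adjusted p = 0.239), and whether its probe set covers the mutated codon was not checked. The plasmid marker *HIS3* averaged 14.19 in H2B K37A and 14.43 in wild-type H2B (limma adjusted p = 0.0341). *URA3*, mutant in both strains, averaged 9.19 in H2B K37A and 8.95 in wild-type H2B (limma adjusted p = 0.0305). *LEU2* did not pass (limma adjusted p = 0.356). The part of these marker differences in the results was not tested. Correlations over the tested probe sets were 0.994 to 0.998 within H2B K37A, 0.997 to 0.998 within wild-type H2B and 0.984 to 0.996 between the strains.

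Ergosterol is the main sterol of fungal membranes and holds the place that cholesterol holds in animals. Its synthesis begins with acetyl-CoA and runs through mevalonate and farnesyl diphosphate to squalene, the first committed sterol precursor. Squalene is oxidised and cyclised to lanosterol, which is demethylated to zymosterol and then desaturated and alkylated to ergosterol. Several of these steps require oxygen, heme or both. The transcription factors Upc2 and Ecm22 bind sterol response elements upstream of many *ERG* genes, and excess sterol is stored as steryl esters. Uptake of sterol from the medium occurs chiefly when oxygen or heme is lacking, and the labels name no such limit for these cultures.

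The sterol genes differed little between the strains. *ERG1*, which encodes squalene epoxidase, was higher in H2B K37A, and *PDR11*, which encodes an ABC transporter of sterol uptake, was lower. The other 30 genes did not pass an adjusted p of 0.05 (limma, Benjamini-Hochberg over 5498 probe sets). The share of the 32 genes that passed was 6.25%, against 14.5% of all tested probe sets. By direction, 1 of 32 was higher against 6.44% of all probe sets, and 1 of 32 was lower against 8.08%. None of the 32 genes changed 2-fold, against 0.364% of all probe sets, and their folds of H2B K37A over wild-type H2B ran from 0.796 for *PDR11* to 1.18 for *ARE1*. At an unadjusted p under 0.05, 7 of the 32 genes passed, against 1923 of all 5498 probe sets.

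**Figure D1:**
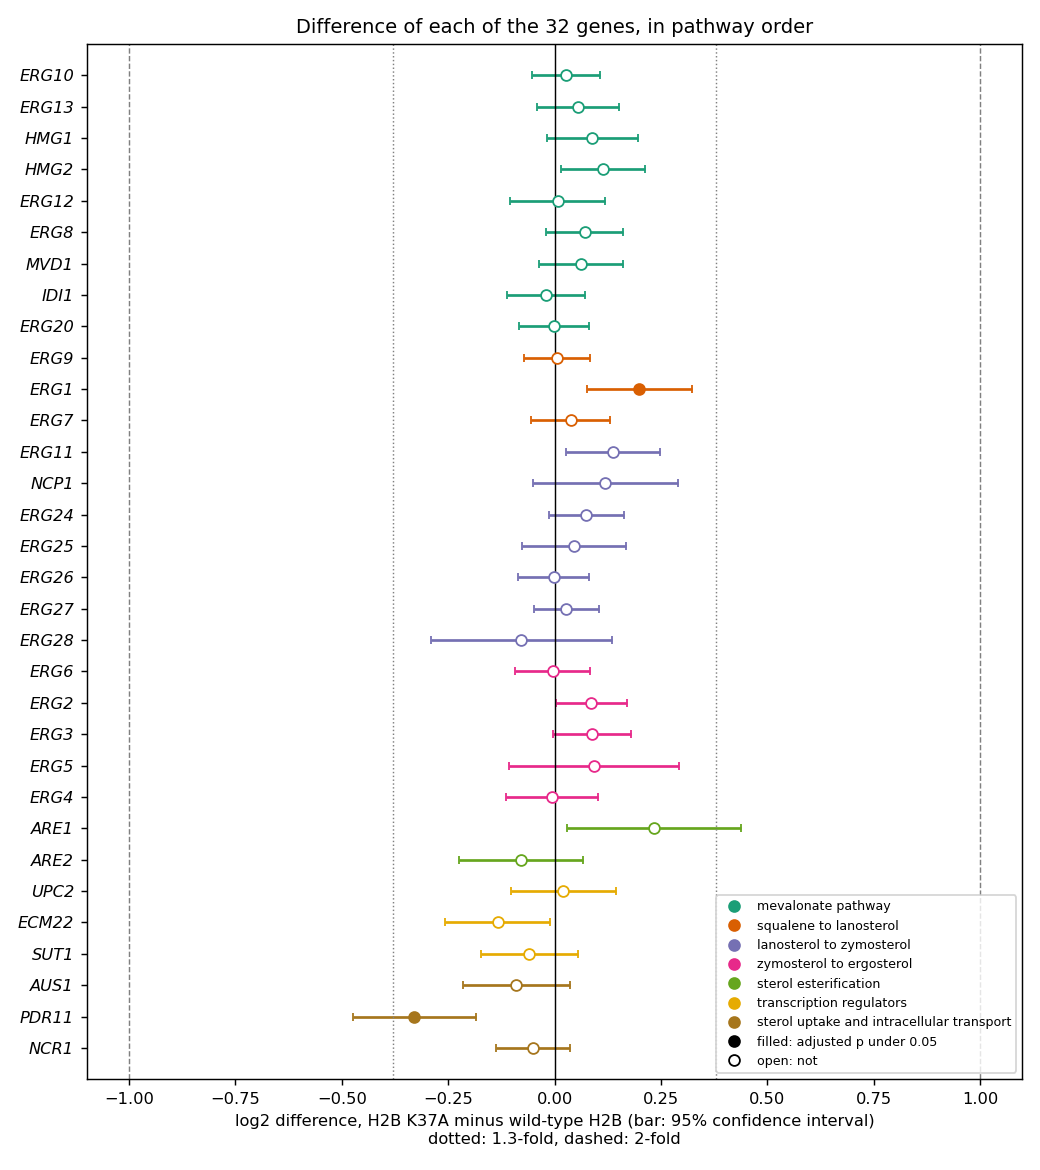
Log2 difference of each of the 32 genes, H2B K37A minus wild-type H2B, in pathway order from top to bottom, with its 95% confidence interval from limma (3 arrays per strain). Filled points passed an adjusted p of 0.05 (*ERG1* and *PDR11*), open points did not, and the vertical lines mark no difference, 1.3-fold (dotted) and 2-fold (dashed).

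The confidence intervals were narrow enough to bound most of these differences. The 95% interval lay within 1.5-fold in either direction for 32 of 32 genes, and for 92.1% of all tested probe sets. It lay within 1.3-fold for 30 of 32, the exceptions being *ARE1* and *PDR11*, and for 78% of all probe sets. The median spread within a strain was 0.05 for the sterol genes and 0.07 for all tested probe sets (pooled SD, log2). The median size of the difference was 0.07 for the sterol genes and 0.09 for all probe sets. Signals of all 32 genes lay above background, with means over the 6 arrays between 9.39 and 13.87.

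Differences were above 0 for 20 of 32 genes (62.5%), against 50.7% of all probe sets. This count became 24 when each array was centred on its own median, because *ERG20*, *ERG26*, *ERG6* and *ERG4*, which differed by -0.00 to -0.01 before, then changed sign. Of the 24 synthesis genes 18 were above 0, as was 1 of the 2 esterification genes, and 5 of the 6 regulator and transport genes were below 0. Most of these genes did not pass, so their signs are uncertain. The arrays of the strains did not overlap for 10 of 32 genes (31.2%), against 42.1% of all probe sets. H2B K37A lay above wild-type H2B for 8 of these (25%, against 20.6% of all probe sets) and below it for 2 (6.25%, against 21.5%). The 8 higher genes were *HMG2*, *ERG8*, *ERG1*, *ERG11*, *ERG24*, *ERG2*, *ERG3* and *ARE1*, and the 2 lower genes were *ECM22* and *PDR11*. The median difference was 0.03 for the sterol genes and 0.00 for all tested probe sets. It was 0.04 for the sterol genes after median centring, which moved the median of all probe sets to 0.02.

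The first 9 genes form the mevalonate pathway, from acetyl-CoA to farnesyl diphosphate. None passed the adjusted p (limma, 1 at an unadjusted p under 0.05), and their differences ran from -0.02 for *IDI1* to 0.11 for *HMG2*, with a median of 0.06. *ERG10* and *ERG13*, which condense acetyl-CoA to HMG-CoA, differed by 0.03 and 0.06. HMG-CoA reductase, the main point of control of the pathway, is encoded by *HMG1* and *HMG2*. *HMG2* (YLR450W) had signals of 12.16, 12.23 and 12.24 in H2B K37A, against 12.13, 12.04 and 12.12 in wild-type H2B. All 3 H2B K37A arrays lay above the wild-type arrays, by a mean of 0.11 (SE 0.04, 95% interval 0.01 to 0.21, limma adjusted p = 0.106). *HMG1* (YML075C) had signals of 12.12, 12.24 and 12.22 in H2B K37A, against 12.12, 12.07 and 12.13 in wild-type H2B. Here the strains overlapped, and the difference was 0.09 (95% interval -0.02 to 0.20, limma adjusted p = 0.203).

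Downstream of the reductase, *ERG12* (mevalonate kinase), *ERG8* (phosphomevalonate kinase) and *MVD1* (mevalonate diphosphate decarboxylase) differed by 0.01, 0.07 and 0.06. *IDI1* (isopentenyl diphosphate isomerase) and *ERG20* (farnesyl diphosphate synthase) differed by -0.02 and -0.00. The strains did not overlap for *ERG8*, the mean of which was 12.39 ± 0.03 in H2B K37A and 12.32 ± 0.04 in wild-type H2B (SD, n = 3 each, limma adjusted p = 0.227). The 95% intervals of *ERG12* and *ERG20*, -0.10 to 0.12 and -0.08 to 0.08, bound their differences.

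From squalene synthesis to lanosterol, *ERG1* stood beside 2 genes with small differences. *ERG9*, which encodes squalene synthase at the branch point from farnesyl diphosphate, differed by 0.01 (limma adjusted p = 0.919). *ERG7*, which encodes lanosterol synthase, differed by 0.04 (limma adjusted p = 0.533). *ERG1* (YGR175C) encodes the epoxidase that takes the first oxygen-dependent step and is the target of the antifungal terbinafine. Its signals were 13.56, 13.57 and 13.72 in H2B K37A, against 13.38, 13.44 and 13.43 in wild-type H2B. All H2B K37A arrays lay above all wild-type arrays, with replicate 3 of H2B K37A the highest. The means were 13.62 ± 0.09 in H2B K37A and 13.42 ± 0.03 in wild-type H2B (SD, n = 3 each), a difference of 0.20 (SE 0.05, 95% interval 0.08 to 0.32), or 1.15-fold.

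The adjusted p of *ERG1* was 0.0497 (limma), close to the threshold. With 1 array left out the difference ran from 0.15 to 0.23. It passed without H2B K37A replicate 1 (adjusted p = 0.044) and no longer passed without H2B K37A replicate 2 (0.22, adjusted p = 0.116) or 3 (0.15, adjusted p = 0.0591). Without wild-type replicate 1, 2 or 3 it was 0.18, 0.21 and 0.21, with adjusted p of 0.142, 0.124 and 0.109. Calls over all 5498 probe sets also became fewer in these fits. They made up 0.127% without H2B K37A replicate 2, 9.11% without H2B K37A replicate 3, and 1%, 0.0364% and 2.46% without wild-type replicate 1, 2 and 3, against 14.5% with all arrays.

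**Figure D2:**
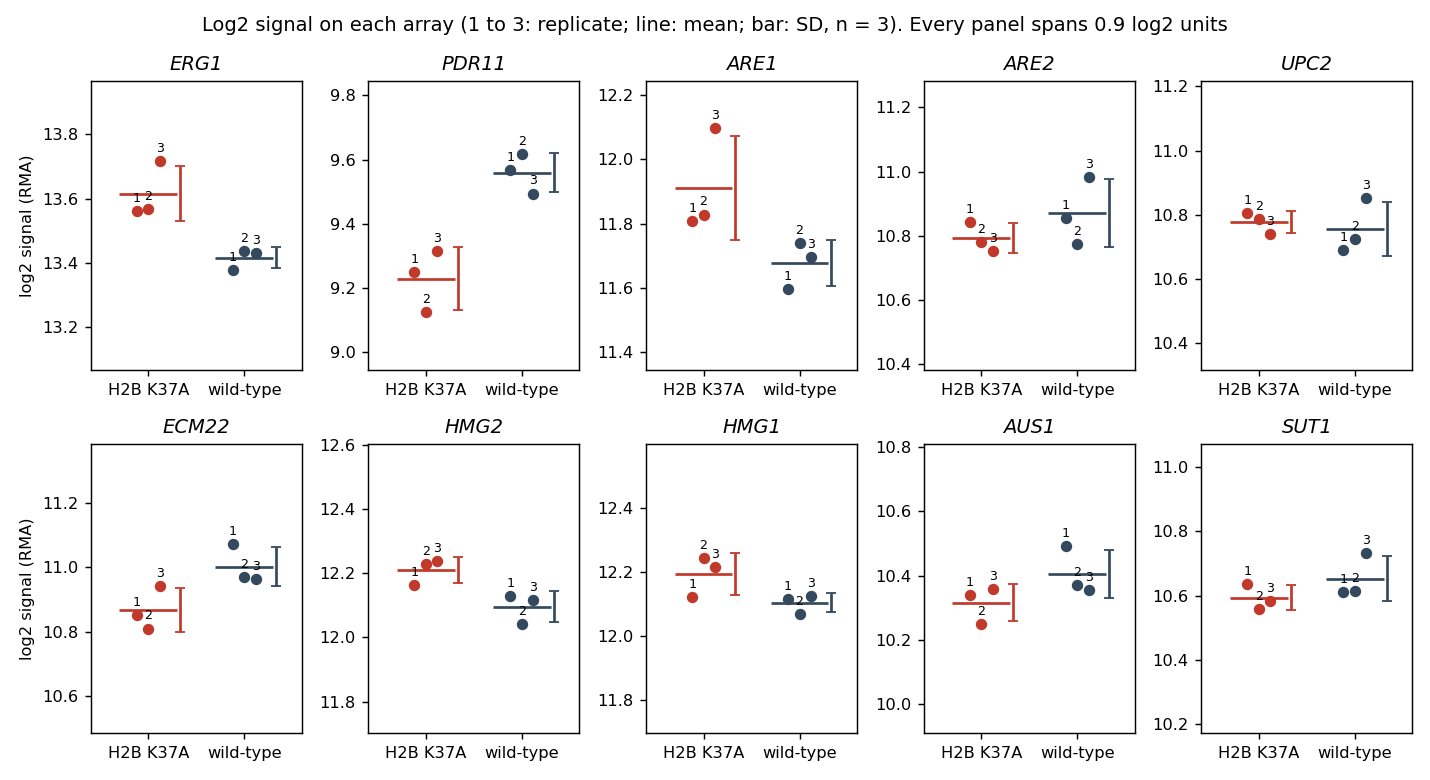
Log2 signal of 10 sterol genes on each array, with H2B K37A (red) left of wild-type H2B (blue). Points are arrays numbered by replicate, horizontal lines are means and bars are SD (n = 3). *ERG1* sits higher and *PDR11* lower in all 3 H2B K37A arrays, whereas the strains overlap for *ARE2*, *UPC2*, *HMG1*, *AUS1* and *SUT1*.

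The 7 genes that take lanosterol to zymosterol remove its surplus methyl groups, and none passed the adjusted p (limma, 1 at an unadjusted p under 0.05). *ERG11* (YHR007C), the cytochrome P450 lanosterol demethylase that azole antifungals inhibit, had signals of 13.71, 13.72 and 13.83 in H2B K37A, against 13.61, 13.66 and 13.58 in wild-type H2B. The strains did not overlap, and the difference was 0.14 (SE 0.05, 95% interval 0.03 to 0.25, limma adjusted p = 0.0853). *NCP1*, which encodes the reductase that supplies electrons to Erg11, differed by 0.12 with overlap (limma adjusted p = 0.273). Its signal was 13.62 on H2B K37A replicate 3, against 13.31 to 13.42 on the other 5 arrays. *ERG24* (sterol reductase) did not overlap between the strains and differed by 0.07 (limma adjusted p = 0.2).

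The demethylation complex itself showed no difference beyond the spread. *ERG25* (methyl oxidase), *ERG26* (decarboxylase) and *ERG27* (keto reductase) differed by 0.05, -0.00 and 0.03. *ERG28*, the scaffold that holds these enzymes at the endoplasmic reticulum, differed by -0.08. It had the widest interval of the synthesis genes, -0.29 to 0.13 (limma adjusted p = 0.578), with H2B K37A arrays between 12.05 and 12.26 and wild-type arrays between 12.10 and 12.40.

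The last 5 genes convert zymosterol to ergosterol, with a median difference of 0.09 and no call (limma, 1 at an unadjusted p under 0.05). *ERG2*, which encodes the sterol isomerase, averaged 13.84 ± 0.03 in H2B K37A and 13.75 ± 0.02 in wild-type H2B (SD, n = 3 each). *ERG3*, which encodes the sterol desaturase that follows, averaged 13.40 ± 0.05 in H2B K37A and 13.31 ± 0.02 in wild-type H2B (SD, n = 3 each). Both differed by 0.09 without overlap, with limma adjusted p of 0.132 and 0.155. *ERG5*, the second cytochrome P450 of the pathway, also differed by 0.09, but its arrays overlapped and its adjusted p was 0.474 (limma). *ERG6*, which encodes the sterol methyltransferase that animal cells lack, and *ERG4*, the last reductase, differed by -0.00 and -0.01, with 95% intervals of -0.09 to 0.08 and -0.11 to 0.10.

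Sterol esterification is carried out by Are1 and Are2, the acyltransferases of the endoplasmic reticulum. *ARE1* (YCR048W) had signals of 11.81, 11.83 and 12.10 in H2B K37A, against 11.60, 11.74 and 11.70 in wild-type H2B. The strains did not overlap, and H2B K37A replicate 3 stood well above the other arrays. The difference of 0.23 was the largest above 0 among the 32 genes but did not pass (SE 0.09, 95% interval 0.03 to 0.44, limma adjusted p = 0.108), and it was 0.14 without H2B K37A replicate 3 (adjusted p = 0.126). *ARE2* (YNR019W) had signals of 10.84, 10.78 and 10.75 in H2B K37A, against 10.86, 10.77 and 10.98 in wild-type H2B. These overlapped, with a difference of -0.08 (95% interval -0.22 to 0.07, limma adjusted p = 0.404).

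Among the regulators, the paralogous sterol-sensing activators *UPC2* and *ECM22* and the uptake regulator *SUT1* did not pass the adjusted p. *UPC2* (YDR213W) had signals of 10.81, 10.79 and 10.74 in H2B K37A, against 10.69, 10.73 and 10.85 in wild-type H2B. The H2B K37A arrays lay inside the range of the wild-type arrays, and the difference was 0.02 (95% interval -0.10 to 0.14, limma adjusted p = 0.812). *ECM22* (YLR228C) had signals of 10.85, 10.81 and 10.94 in H2B K37A, against 11.07, 10.97 and 10.96 in wild-type H2B. The H2B K37A arrays lay below the wild-type arrays, narrowly, and the mean difference was -0.13 (SE 0.05, 95% interval -0.26 to -0.01, limma adjusted p = 0.119). *SUT1* (YGL162W) had signals of 10.64, 10.56 and 10.58 in H2B K37A, against 10.61, 10.61 and 10.73 in wild-type H2B. They overlapped, with a difference of -0.06 (limma adjusted p = 0.416).

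The 3 genes of uptake and intracellular transport all had differences below 0. *PDR11* (YIL013C) had signals of 9.25, 9.13 and 9.32 in H2B K37A, against 9.57, 9.62 and 9.49 in wild-type H2B. The strains were well separated, and this was the largest difference of the 32 genes in either direction. The means were 9.23 ± 0.10 in H2B K37A and 9.56 ± 0.06 in wild-type H2B (SD, n = 3 each), a difference of -0.33 (SE 0.06, 95% interval -0.47 to -0.19, limma adjusted p = 0.0255), or 0.796-fold. *AUS1* (YOR011W), the paralog of *PDR11* in sterol uptake, had signals of 10.34, 10.25 and 10.36 in H2B K37A, against 10.49, 10.37 and 10.35 in wild-type H2B. The *AUS1* arrays overlapped, with a difference of -0.09 (95% interval -0.22 to 0.04, limma adjusted p = 0.267). *NCR1*, which encodes the vacuolar protein related to human NPC1, differed by -0.05 (limma adjusted p = 0.37).

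The difference of *PDR11* ran from -0.37 to -0.28 with 1 array left out. It passed without H2B K37A replicate 1 or 3 (adjusted p = 0.0292 and 0.0294) and did not pass without H2B K37A replicate 2 (-0.28, adjusted p = 0.0832). Without wild-type replicate 1, 2 or 3 it was -0.33, -0.30 and -0.36, with adjusted p of 0.0839, 0.096 and 0.0567, in the same fits that called few probe sets of any kind. *ERG1* and *PDR11* were the only sterol genes called in any fit that left out a single array.

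**Figure D3:**
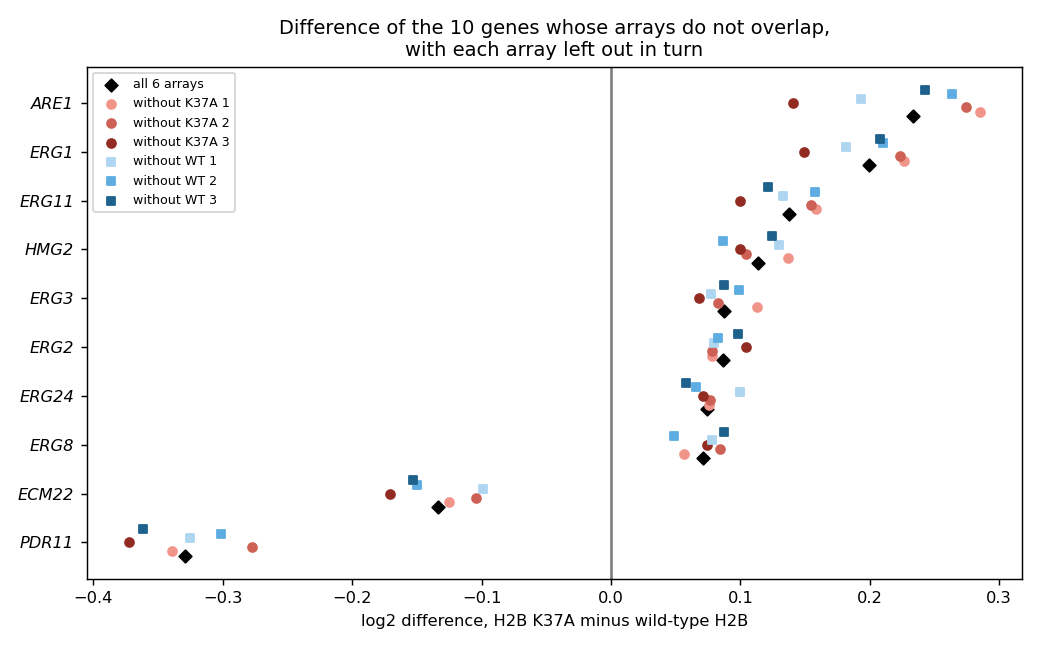
Log2 difference, H2B K37A minus wild-type H2B, of the 10 sterol genes whose arrays do not overlap, with all 6 arrays (black diamonds) and with each array left out in turn (red circles for H2B K37A, blue squares for wild-type H2B). Genes with separated arrays cannot change sign when 1 array is left out, so only the sizes are informative, and the *ARE1* point without H2B K37A replicate 3 lies at 0.14, against 0.23 with all arrays.

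Whether the paralogs of a pair changed unequally was tested on the difference between their signals within each array. The 4 pairs were compared by exact two-sided permutation of the 6 arrays, with adjustment over the 4 pairs. The smallest p this test can give with 3 against 3 arrays is 0.1, so no pair could reach 0.05 whatever its values, and the p-values do not show that the paralogs of a pair changed alike. The signal of *AUS1* minus that of *PDR11* was 1.09, 1.13 and 1.04 in H2B K37A, against 0.92, 0.75 and 0.86 in wild-type H2B. These did not overlap and differed by 0.24 (exact p = 0.1, adjusted p = 0.267). *ARE1* minus *ARE2* was 0.96, 1.05 and 1.34 in H2B K37A, against 0.74, 0.96 and 0.71 in wild-type H2B, a difference of 0.31 with a slight overlap (exact p = 0.2, adjusted p = 0.267). For *UPC2* minus *ECM22* the difference was 0.15 (exact p = 0.2, adjusted p = 0.267), and for *HMG2* minus *HMG1* it was 0.02 (exact p = 0.3, adjusted p = 0.3).

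Replicate 3 of H2B K37A stood apart for several sterol genes. It gave the highest signal of the 6 arrays for 13 of 32 genes, and no share over all probe sets is given beside this count. The mean of the 32 centred signals was 0.04 there, against -0.00 on both other H2B K37A arrays and -0.01 on each wild-type array. Over all tested probe sets that mean was 0.00 on H2B K37A replicate 3 and -0.00 and -0.01 on replicates 1 and 2. It was 0.03, -0.00 and -0.02 on wild-type replicates 1, 2 and 3. The signal of H2B K37A replicate 3 minus the mean of the other H2B K37A arrays had a median of 0.04 over the sterol genes and 0.01 over all tested probe sets. That difference was above 0 for 21 of 32 sterol genes and for 2903 of 5498 tested probe sets. The array was not apart for sterol genes alone. Its estimated array weight was the lowest, 0.30, against 0.72 to 3.70 for the others, though that estimation stopped before it converged. *ARE1*, *ERG1*, *ERG11*, *NCP1* and *ERG5* were all highest on this array. Wild-type replicate 1 gave the lowest signal for 10 of 32 genes, again without a share over all probe sets to set beside it. With these 2 arrays left out together, no sterol gene passed (limma), against 2.35% of all tested probe sets. An unadjusted p under 0.05 was reached by 4 of 32, against 1605 of 5498 probe sets. *ERG1* then differed by 0.13 (adjusted p = 0.101) and *PDR11* by -0.37 (adjusted p = 0.0591).

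**Figure D4:**
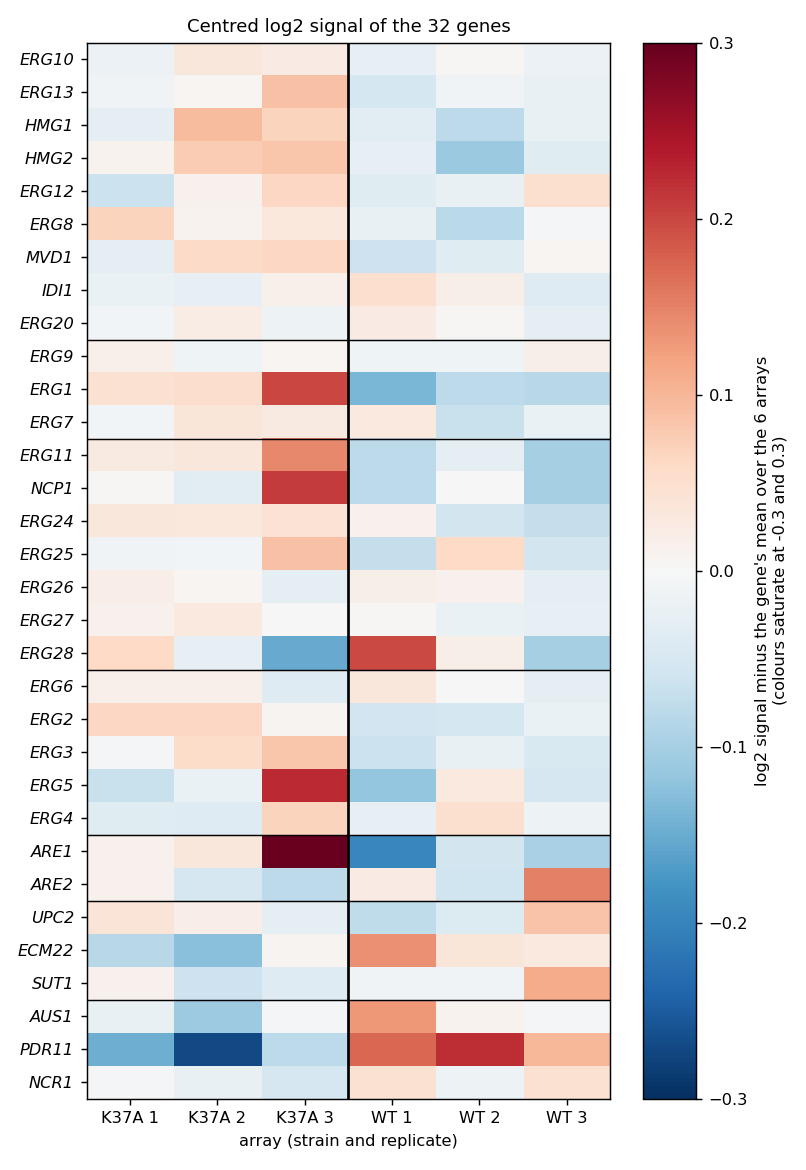
Signal of each of the 32 sterol genes on each array as the log2 difference from the mean of that gene over the 6 arrays (red above, blue below, colours saturating at 0.3 in size), with H2B K37A arrays left of wild-type H2B arrays. *PDR11* is the row with the strongest blue on the H2B K37A side. The strongest red cells are *ARE1* and *ERG5* on H2B K37A replicate 3, closely followed by *PDR11* on wild-type replicate 2.

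A further 86 genes with roles next to the sterol pathway were examined in 8 lists, all of them measured. These lists too were chosen with earlier results of these data known. Of these, 5 were higher and 9 lower in H2B K37A, and 72 did not pass. The share that passed was 16.3%, against 14.5% of all tested probe sets, and the median difference over the 86 genes was -0.01. By list the share that passed ran from 0% of the 7 fatty acid genes to 40% of the 5 electron donors and heme-binding partners. The counts given below for each list are to be read against the 14.5% of all probe sets, and the lists are small. Arrays did not overlap for 50% of the 86 genes, against 42.1% of all probe sets. Many of these calls depended on which arrays were kept. Without H2B K37A replicate 2 none of the 86 passed (limma, 26 at an unadjusted p under 0.05). Without wild-type replicate 1, 2 or 3 the calls numbered 2, 1 and 4, and without H2B K37A replicate 1 or 3 they numbered 21 and 11. Over all 5498 probe sets the calls numbered 7 without H2B K37A replicate 2, 55, 2 and 135 without wild-type replicate 1, 2 and 3, and 1140 and 501 without H2B K37A replicate 1 and 3, against 798 with all arrays.

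Among 6 regulators that respond to oxygen, heme or sterol, 1 passed. *HAP1*, which encodes a heme-responsive activator of respiratory and sterol genes, had signals of 11.72, 11.82 and 11.82 in H2B K37A, against 11.47, 11.37 and 11.52 in wild-type H2B. It rose without overlap by 0.33 (95% interval 0.20 to 0.46, limma adjusted p = 0.0215). The hypoxic repressors *ROX1* and *MOT3* differed by 0.15 and 0.06 and the membrane-bound activator *MGA2* by 0.08, none passing, and the *ROX1* interval was wide, -0.24 to 0.55.

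Of 5 electron donors and heme-binding partners of the sterol enzymes, 1 rose and 1 fell. *CYB5*, which encodes the cytochrome that passes electrons to sterol and sphingolipid oxidases, had signals of 12.02, 12.26 and 12.24 in H2B K37A, against 11.74, 11.81 and 11.68 in wild-type H2B. It rose by 0.43, or 1.35-fold (95% interval 0.26 to 0.61, limma adjusted p = 0.0224). *DAP1*, which encodes a heme-binding partner of Erg11, fell by 0.23 (limma adjusted p = 0.0497), a call that was lost after median centring (adjusted p = 0.0595) and after a further quantile normalization (adjusted p = 0.0635). *MCR1*, which encodes a reductase that can supply Erg11, differed by -0.20 without overlap (limma adjusted p = 0.0862), and *ERG29* differed by 0.06.

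Of 9 genes of heme synthesis and breakdown, 1 rose and 1 fell, with a median of 0.03. *HMX1*, which encodes heme oxygenase, had signals of 9.74, 9.66 and 9.43 in H2B K37A, against 10.65, 10.50 and 10.33 in wild-type H2B. It fell by 0.88 to 0.542-fold (95% interval -1.14 to -0.63, limma adjusted p = 0.0162), with every H2B K37A array below every wild-type array. *HEM13*, which encodes the oxygen-requiring coproporphyrinogen oxidase, rose by 0.23 (limma adjusted p = 0.0279). *HEM1*, the first enzyme of heme synthesis, and *HEM12* differed by 0.17 and 0.13 without overlap and did not pass (limma adjusted p = 0.0979 and 0.0809).

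The degradation machinery for HMG-CoA reductase and squalene epoxidase, with the INSIG homologs, held 12 genes, of which 1 fell and none rose. *HRD1*, which encodes the ubiquitin ligase that marks Hmg2, averaged 10.98 ± 0.07 in H2B K37A and 11.23 ± 0.05 in wild-type H2B (SD, n = 3 each), a fall of 0.25 (limma adjusted p = 0.0269). *DER1* and *USA1* of the same pathway differed by -0.22 and -0.10 with overlap. *SSM4*, which encodes the ligase that marks Erg1, differed by 0.09 (limma adjusted p = 0.113).

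Farnesyl and geranylgeranyl units are also used outside the sterol branch, and of 15 such genes 1 rose and 3 fell. *SRT1*, a cis-prenyltransferase of dolichol synthesis, fell by 1.07 to 0.477-fold (limma adjusted p = 0.00823). This gene was picked by the study from these same arrays, so its fall is not independent evidence. The subunits of protein farnesyltransferase fell together, *RAM2* by 0.27 and *RAM1* by 0.22 (limma adjusted p = 0.0162 and 0.0255). *BTS1*, which encodes geranylgeranyl diphosphate synthase, rose by 0.22 (limma adjusted p = 0.0345). *RER2*, the other cis-prenyltransferase, differed by 0.25 without overlap (limma adjusted p = 0.0635).

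Steryl ester hydrolysis, sterol acetylation and sterol transfer held 15 genes, of which 1 rose and 2 fell. *ATF2*, which encodes an acetyltransferase that acts on sterols, had signals of 10.97, 11.09 and 11.22 in H2B K37A, against 10.54, 10.64 and 10.61 in wild-type H2B. It rose by 0.49, or 1.41-fold (95% interval 0.33 to 0.66, limma adjusted p = 0.0177). The sterol transfer protein gene *LAM5* fell by 0.27 (limma adjusted p = 0.0488), a call that was lost after a further quantile normalization (adjusted p = 0.0534). *NPC2*, the vacuolar partner of *NCR1*, fell by 0.14 (limma adjusted p = 0.0462), a call that was lost after median centring (adjusted p = 0.0582). The steryl ester hydrolase gene *YEH1* differed by 0.42 and *YSP1* by 0.25, both without overlap and neither passing (limma adjusted p = 0.0641 and 0.0694).

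Fatty acid and sphingolipid genes, which share acetyl-CoA or membranes with ergosterol, held 1 call. None of 7 fatty acid genes passed (limma, 0 at an unadjusted p under 0.05), and their differences ran from -0.06 for *FAS2* to 0.08 for *ELO1*. Of 17 sphingolipid genes 1 fell, *CSH1*, by 0.29 (limma adjusted p = 0.0447). Its paralog *SUR1* differed by -0.27 (limma adjusted p = 0.0654), and the ceramidase genes *YPC1* and *YDC1* by -0.33 and -0.14 (limma adjusted p = 0.0591 and 0.0824).

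**Figure D5:**
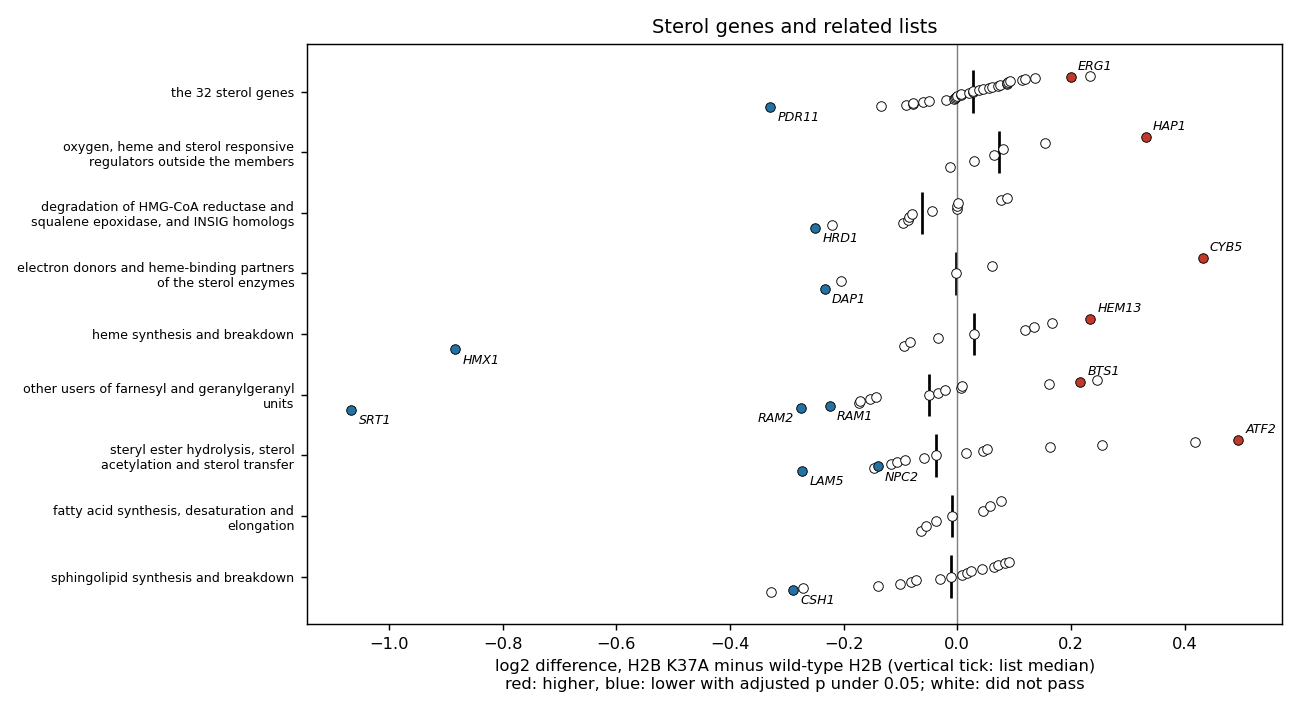
Log2 difference, H2B K37A minus wild-type H2B, of the 32 sterol genes (top row) and of the 86 genes in 8 related lists. Each point is 1 gene, red where higher and blue where lower with an adjusted p under 0.05, white where it did not pass, and the vertical ticks are list medians. The sterol genes lie between -0.33 and 0.23, whereas several related genes lie farther out. Among these are *SRT1*, *HMX1*, *CYB5* and *ATF2*, which passed, and *YEH1*, which did not.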

How the data were processed

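The authors deposited log2 signals, made with RMA in Affymetrix Expression Console (versions not given in the sources used here), as 1 table of 10928 probe sets by 6 arrays. RMA removes a shift shared by most transcripts and compresses signals near background. The platform annotation named the probe sets (7244 with 1 symbol, 1 with several, 3683 with none), and the 5498 whose gene is in the RefSeq table of the R64 assembly of *S. cerevisiae* were tested without a filter. Means and differences are of log2 values. The strain effect was estimated with lmFit and eBayes of limma 3.58.1 (R 4.3.3), which gave two-sided p-values with Benjamini-Hochberg adjustment over all 5498, threshold 0.05. On 20 simulated data sets of this comparison with 200 of 5498 probe sets changed, 88.2% of 1.3-fold, 97.2% of 1.5-fold and 99.8% of 2-fold changes were called, and 5.1% of calls were false. These rates belong to that simulated setting. In the data 798 of 5498 probe sets passed, so the rates need not hold for these arrays. The 32 genes and the related lists were chosen with earlier results of these data known. Array values are printed for sterol genes that passed, for those with separated arrays and a size of at least 0.2, for the paralog pairs and for the regulators. From each related list the 4 largest differences are open to naming. Array values of *ERG11*, *NCP1*, *HAP1*, *CYB5*, *HMX1* and *ATF2*, and the names *BTS1* and *NPC2*, were added after their values were seen. Precision is limited by 3 arrays per strain, and depth does not apply. Alternatives were all probe sets, a filter on dim probe sets, other normalization or centring, an intensity trend, array weights, a replicate block, gene means, no moderation and arrays left out. No reference sequences were used here, and no coordinates are given because the array files name no build.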

Additional observations from a re-analysis of the deposited data

How the results depend on the processing

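With all arrays, 2 of the 32 sterol genes passed. The count was 0 over all probe sets of the array, without moderation of the variance and without both wild-type replicate 1 and H2B K37A replicate 3 (limma, with 4, 7 and 4 genes at an unadjusted p under 0.05). These fits called 2.57%, 0.0364% and 2.35% of all probe sets. The count was 4 with an intensity trend (3 higher), which called 17.6% of all probe sets. It was 6 with array weights (4 higher, 2 lower). With 1 array left out it ran from 0 to 2 (0 to 1 in either direction). Those fits called 0.0364% to 20.7% of all probe sets. *ERG11* and *ERG2* joined under the trend, and *HMG1*, *HMG2*, *ERG2* and *ECM22* under array weights. Array weights called 35.6% of all probe sets, against 14.5% without them, and their estimation stopped before it converged, so values under array weights are uncertain. *ERG1* and *PDR11* stayed called under the dim filter, a further quantile normalization, median centring and gene means. Genes whose arrays did not overlap numbered 11 to 16 with 1 array left out, fewer arrays making separation easier. With all arrays the count was 10 (31.2%), against 42.1% of all probe sets. No share over all probe sets is given beside the counts with 1 array left out, so these are not read as a result about the sterol genes. No sterol gene reached 2-fold under any alternative run. The median difference, 0.0275 with all arrays, was 0.0433 after median centring and 0.0179 to 0.0418 with 1 array left out. Calls in the related lists, 14 with all arrays, numbered 6 over all probe sets, 33 with array weights, 3 without both arrays, 0 without moderation (limma, 32 at an unadjusted p under 0.05) and 0 to 21 with 1 array left out.

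Differences that changed sign all belonged to genes that did not pass. After median centring *ERG20* was 0.0146, *ERG26* 0.0136, *ERG6* 0.0113 and *ERG4* 0.0103, and *ERG4* was 0.0153 after a further quantile normalization. With array weights *ERG20* was 0.0157, *ERG9* -0.00288, *ERG26* 0.00424 and *ERG6* 0.0136. Without both arrays *ERG12* was -0.038, *ERG20* 0.0189, *ERG9* -0.00038, *ERG25* -0.0109, *ERG26* 0.0207, *ERG28* 0.0582, *ERG6* 0.0294 and *ERG5* -0.0315. With 1 array left out the ranges were -0.0221 to 0.0413 for *ERG12*, -0.0446 to 0.000268 for *IDI1*, -0.0154 to 0.0111 for *ERG20*, -0.000147 to 0.0162 for *ERG9*, -0.0172 to 0.012 for *ERG26*, -0.148 to 0.00195 for *ERG28*, -0.019 to 0.0134 for *ERG6*, -0.0405 to 0.0172 for *ERG4* and -0.0117 to 0.0685 for *UPC2*. Where no construction of the alternative shows a cause, the cause was not tested.

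Replicate numbers did not pair the arrays throughout. Same-numbered arrays correlated at 0.40, -0.29 and 0.23 in their deviations from the strain means. Both replicate 1 arrays and wild-type replicate 3 correlated best with their own number, and the remaining arrays did not. With the replicate number as a block, 947 of 5498 probe sets passed, against 798 without it. The sterol calls were again 2, *ERG1* (adjusted p = 0.0498) and *PDR11* (adjusted p = 0.0418), and 19 related genes passed, 11 of them shared with the 14. A description of promoter motifs that had been planned was not run, since no promoter sequences were used here.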
